A study of Mus musculus with 12 samples.

Results

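The mitochondrial control region of mouse hearts was examined as the last 877 bases of mm10 chrM, from the base after mt-Tp, the proline tRNA gene, to the end of the linear reference. It was chosen by position as 1 region beside 37 genes, and it holds 18 of the 327 consecutive windows of the genome, each of 50 bases (the last window of the region has 27). Total RNA was sequenced from hearts of mice with a knockout of PTCD1 (KO) and of wild-type mice (WT), either untreated (the control libraries) or after treatment of the isolated RNA with CMC, a carbodiimide that forms adducts on RNA bases. There were 3 libraries in each of these 4 groups, and cytoplasmic ribosomal RNA had been removed from all of them. The age of the mice, the cells in which the gene was deleted and whether untreated and CMC libraries came from the same RNA could not be read from the sources at hand. The labels do not say that the replicates came from separate animals, so p-values measure only the spread between these libraries.

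The control region is the main noncoding stretch of the mammalian mitochondrial genome. It carries the promoters from which both strands are transcribed into long polycistronic RNAs and the origin of heavy-strand replication. Transcripts from the light-strand promoter prime that replication near the conserved sequence blocks, and a short RNA from the same promoter is known as 7S RNA. Heavy-strand transcripts that run past mt-Tp enter the region from its other side. PTCD1 is a pentatricopeptide repeat protein of mitochondria that takes part in the maturation of mitochondrial RNA, 16S rRNA in particular. The study compared RNA of KO and control mice to find changes at the RNA level.

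The reference sequence of 2 stretches is shown because the results turn on them. Both are given for the plus strand of mm10, 5′ to 3′, as the deposited per-base tables list it. The first is chrM:15723-16022, bases 301 to 600 of the region, where depth was higher in KO. Its capitals mark 75 bases, 15840 to 15914, between a rise and a drop of forward reads. The second is chrM:16035-16188, the interval of the count table's feature mt-7s (154 bases, annotated on the minus strand), with the motifs GACATAA and CAAACCCC in capitals.

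chrM:15723-16022: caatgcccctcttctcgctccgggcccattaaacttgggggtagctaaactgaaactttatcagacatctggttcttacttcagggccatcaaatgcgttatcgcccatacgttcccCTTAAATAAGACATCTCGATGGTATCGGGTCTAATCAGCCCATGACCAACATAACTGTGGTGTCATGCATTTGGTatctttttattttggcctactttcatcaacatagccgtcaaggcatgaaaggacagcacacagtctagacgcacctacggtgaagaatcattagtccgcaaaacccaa

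chrM:16035-16188: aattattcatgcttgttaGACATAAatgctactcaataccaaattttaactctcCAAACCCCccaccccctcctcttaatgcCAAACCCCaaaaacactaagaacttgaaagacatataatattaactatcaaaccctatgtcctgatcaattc

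The motif GACATAA, typical of the first conserved sequence block, matched once in the whole genome on either strand, at 16053 to 16059. CAAACCCC matched at 16089 to 16096 and 16117 to 16124 and nowhere else, so both motifs were in 0.306% of the genome's windows. CCCCCC, which overlaps the first CAAACCCC match, matched once in the region, at 16093, and was in 1.22% of the genome's windows. TACAT and its reverse complement ATGTA, letters known from termination-associated sequences, matched 6 times in the region, all between 15425 and 15502, and 40 times in the genome. They were in 11.1% of the region's windows and 10.1% of all windows. The stretch of 300 bases was 45.7% G and C, against 37.01% for the region and 36.7% for the rest of the genome.

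Total gene counts were 10389398 to 12462093 per library, of which 2683284 to 3187748 were nuclear. Depth in the region averaged 479 to 746 reads per base. Depth is given below per 1000000 nuclear counts, after adjustment of the nuclear counts for composition (TMM), and is called scaled depth. The targeted gene Ptcd1 had counts of 28, 17 and 19 in untreated KO and 78, 71 and 74 in untreated WT. After CMC the KO libraries had 23, 21 and 20 and the WT libraries 79, 103 and 74, so KO and WT did not overlap. All 6 cardiomyocyte markers were detected in every library. Their summed level was 117114 to 124932 per 1000000 nuclear counts in KO and 180595 to 195119 in WT. Smooth muscle markers were also lower in KO without overlap (454 to 588 against 653 to 740), as was the skeletal muscle list (1250 to 1391 against 1966 to 2299), of which 1 of 3 genes was detected in every library. Macrophage markers were higher in KO (152 to 169 against 118 to 131). Fibroblast, endothelial and erythroid markers overlapped, and hepatocyte markers stayed at or under 0.722 per 1000000. In bulk samples, fewer cells of a type and less RNA per cell cannot be told apart, and the part of these levels in the results below was not tested. Replicate 3 of the CMC-treated WT stood apart from its group: the chi-square of nuclear gene counts was 1.96 and 2.28 per degree of freedom between it and replicates 1 and 2, against 1.35 between those and 1.11 to 1.32 between replicates of the other groups.

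Depth over the whole region was slightly higher in KO than in WT. Untreated KO libraries had scaled depths of 220.9, 235.4 and 226.8 reads per base, and untreated WT libraries had 206.7, 205.9 and 197.3. After CMC, KO libraries had 237.7, 243.3 and 213.5, and WT libraries had 160.9, 150.1 and 197.7. In both cases every KO library was above every WT library, and the highest CMC-treated WT library was replicate 3. The log2 difference of KO to WT was 0.16 (SE 0.035, limma, adjusted p = 0.0033) untreated and 0.46 (SE 0.12, limma, adjusted p = 0.0059) after CMC. Exact two-sided permutation tests gave p = 0.1 for both, the smallest that 3 against 3 libraries allow.

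These differences were small beside those of the rest of the genome. Of the region and the 37 mitochondrial genes, tested together for depth, 100% passed the test untreated and 84.2% after CMC. In a fit of all 12 libraries the untreated difference missed the threshold (limma, adjusted p = 0.107). In CMC-treated libraries the difference was 0.15 as a share of mitochondrial depth and did not pass (limma, adjusted p = 0.172).

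CMC changed the mean depth of the region less than its shape. The log2 difference of CMC to untreated was -0.27 in WT (SE 0.11, limma, adjusted p = 0.0713, with 57.9% of features passing) and 0.02 in KO (SE 0.058, limma, adjusted p = 0.737, with 86.8% passing). Without replicate 3 of the CMC-treated WT, the WT value was -0.39 and passed. The difference of the CMC effects, KO minus WT, was 0.29 (SE 0.13, limma, adjusted p = 0.0887, with 36.8% passing), and 0.41 without that replicate, which then passed.

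The region was a small fraction of mitochondrial RNA. It averaged 1.99% ± 0.051 of the depth over mt-Cytb, the cytochrome b gene upstream of it, in untreated KO and 3.42% ± 0.075 in untreated WT (SD, n = 3). After CMC the values were 1.35% ± 0.040 and 2.87% ± 0.20. Against mt-Cytb the region was thus lower in KO, with a log2 difference of the ratio of -0.78 untreated (limma, adjusted p = 2.87e-07) and -1.09 after CMC (limma, adjusted p = 5.60e-06). Against mt-Rnr1, the 12S rRNA gene, it was lower by 1.77 and 1.52 on the log2 scale. Against mt-Nd6, which is encoded on the other strand, it was higher by 0.58 untreated and 0.22 after CMC.

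The neighbouring tRNA genes differed between themselves. Scaled depth over mt-Tp was 272.5 ± 2.98 in untreated KO and 194.3 ± 11.2 in untreated WT, and the region relative to it was lower by 0.33 on the log2 scale in KO (limma, adjusted p = 0.000306). After CMC that ratio differed by 0.06 and missed the threshold (limma, adjusted p = 0.593). Over mt-Tf, the phenylalanine tRNA gene at the other end of the linear reference, scaled depth was 231.8 ± 15.5 in untreated KO and 39.9 ± 3.95 in untreated WT. This gene covers bases 1 to 68, and reads could not extend before base 1, which limits its depth in all libraries. The region relative to mt-Tf was lower in KO by 2.38 untreated and 2.06 after CMC on the log2 scale. Of the 37 ratios, the region was higher in KO in 7 and lower in 27 untreated, and higher in 7 and lower in 25 after CMC.

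Depth was not even along the region. It was highest at bases 252 to 267 of the region in every library, fell to a low floor past base 700, and reached its last covered base between 16284 and 16292. The last 7 to 15 bases had no reads, and 174 to 180 bases had a depth under 100. Reads could not continue past the end of the linear reference, so the depth close to it has no reading as an RNA end.

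**Figure D1:**
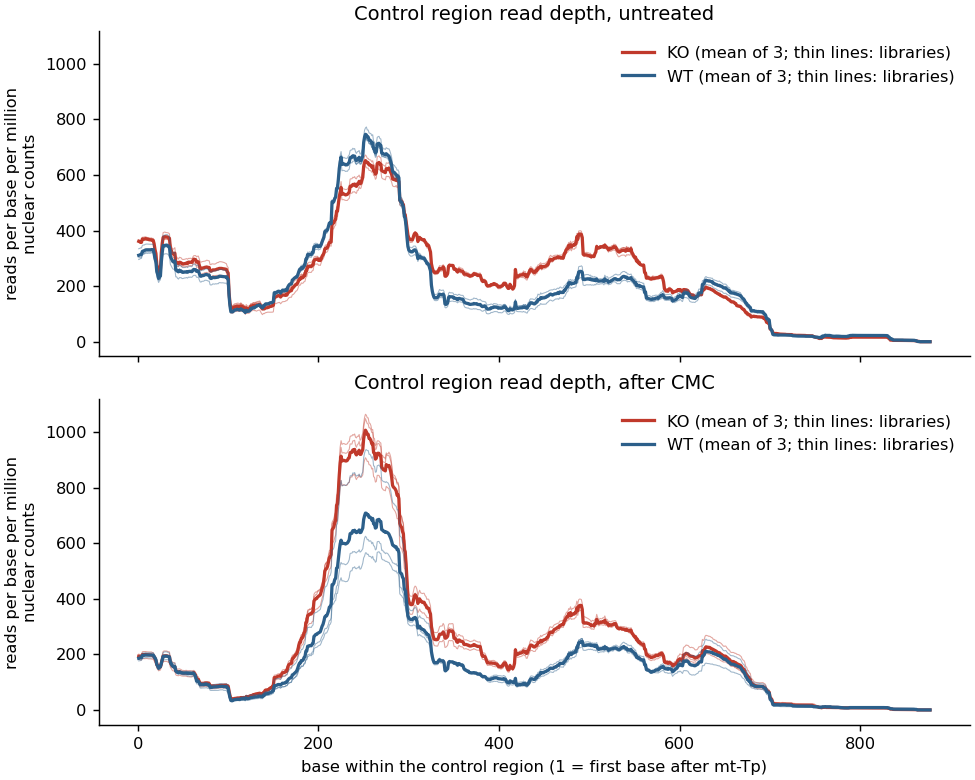
Scaled depth (reads per base per 1000000 nuclear counts, y axis) at each base of the control region (x axis), in untreated libraries above and CMC-treated libraries below, with a thick line for the mean of 3 libraries and thin lines for single libraries. KO lies above WT between bases 301 and 600 in both panels, and the peak near base 252 is higher in KO only after CMC.

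The windows that were higher in KO both untreated and after CMC lay in the middle of the region. Untreated, 8 of the 18 windows were higher in KO and 6 were lower, where 97.6% of all windows of the genome passed the test. After CMC, 9 were higher and 0 lower, where 89.3% of all windows passed. The median log2 difference over the region's windows was 0.09 untreated and 0.30 after CMC, against 0.92 and 1.11 over all 327 windows. The 6 windows from 15723 to 16022 were higher in KO both untreated and after CMC. No other window was higher in both.

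The stretch formed by these 6 windows was set after their values were seen, and its mean is given as a description. Untreated KO libraries had scaled depths of 273.2, 281.8 and 270.2 there, and untreated WT libraries had 188.3, 186.4 and 167.3. After CMC, KO libraries had 263.1, 266.9 and 246.2, and WT libraries had 174.3, 166.7 and 178.2. No KO library overlapped a WT library, and KO was 1.52-fold higher untreated and 1.495-fold higher after CMC. Each of the 6 windows nevertheless differed by less than the median of all 327 windows of the genome. That median was a log2 difference of 0.92 untreated and 1.11 after CMC. Without replicate 3 of the CMC-treated WT the fold after CMC was 1.52.

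Within the stretch the difference was largest at 15823 to 15872. In that window untreated KO libraries had 232.1, 240.9 and 228.2, and untreated WT libraries had 140.3, 136.6 and 113.1. After CMC, KO libraries had 203.0, 210.6 and 188.4, and WT libraries had 107.2, 103.5 and 109.2. Every KO library was thus far above every WT library, and replicate 3 of the CMC-treated WT lay with its group. The log2 difference was 0.85 untreated (SE 0.075, limma, adjusted p = 3.79e-06) and 0.91 after CMC (SE 0.071, limma, adjusted p = 1.80e-05). The other 5 windows differed by 0.43 to 0.78 untreated and by 0.35 to 0.74 after CMC.

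**Figure D2:**
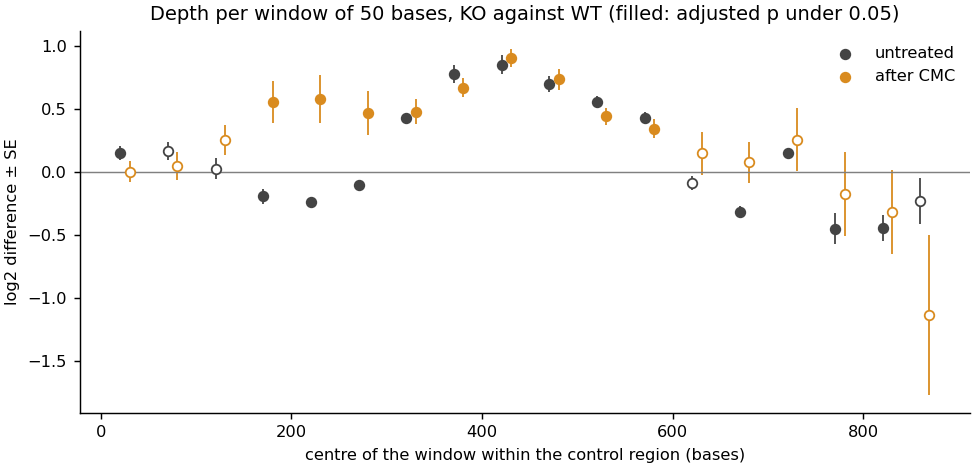
Log2 difference of scaled depth, KO to WT (y axis, with the standard error as bars), for the 18 windows by their centre in the region (x axis, the series drawn 5 bases to either side), with filled points where the adjusted p was under 0.05. The points between bases 301 and 600 lie above 0 in both series and reach 0.85 untreated and 0.91 after CMC.

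Outside this stretch the windows did not keep one direction. The windows from 15573 to 15722, which hold the peak, were lower in untreated KO, by 0.19, 0.24 and 0.10 on the log2 scale, and the last of these was 0.00068 with nuclear counts summed without adjustment. In the fit of all 12 libraries none of these 3 passed. After CMC the same 3 windows were higher in KO, by 0.56, 0.58 and 0.47. In the window with the highest depth, 15673 to 15722, untreated KO libraries had 561.1, 600.3 and 585.4, and untreated WT libraries had 618.0, 647.5 and 612.2. After CMC, KO libraries had 856.8, 863.1 and 740.7, and WT libraries had 532.8, 500.7 and 769.9. The CMC-treated groups overlapped there through replicate 3 of the WT, and the call after CMC was lost without replicate 1 or 2 of either genotype (limma, adjusted p of 0.0987 to 0.108). The call at 15623 to 15672 was lost without the same 4 libraries, and that at 15573 to 15622 without KO replicate 1 or 2 or WT replicate 1. Untreated, the call at 15673 to 15722 was lost without KO replicate 1 or 3 or WT replicate 2, and that at 15573 to 15622 without WT replicate 2.

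Windows toward the end of the region went in both directions in untreated KO. From 16073 on, 16073 to 16122, 16173 to 16222 and 16223 to 16272 were lower, by 0.32, 0.45 and 0.44 on the log2 scale. The window 16123 to 16172 was higher, with scaled depths of 24.4, 26.5 and 24.5 in KO and 22.8, 22.5 and 22.6 in WT (log2 difference 0.15, limma, adjusted p = 0.0042), and 16023 to 16072 and the last window did not pass. The window with the smallest log2 difference was 16173 to 16222, at -0.45 (SE 0.13, limma, adjusted p = 0.0075), with scaled depths of 13.6, 18.0 and 13.1 in KO and 20.3, 17.8 and 22.6 in WT. One KO library was above the lowest WT library, and the difference did not pass in the fit of all 12 libraries (limma, adjusted p = 0.145). After CMC the smallest value was -1.14, in the window of the lowest depth, the 27 bases from 16273, where all groups averaged under 2.3 reads per base per 1000000 and the difference did not pass (limma, adjusted p = 0.132).

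CMC lowered the depth of the first 150 bases, and of a stretch of low depth near the other end, in both genotypes. In WT, 0 of the 18 windows were higher after CMC and 6 were lower, where 33.6% of all windows passed. In KO, 2 were higher and 10 lower, where 82.6% passed. The same 5 windows were lower in both genotypes. The first 150 bases, set apart after their values were seen, had untreated scaled depths of 229.3, 256.0 and 246.1 in KO and 238.3, 207.6 and 219.8 in WT. After CMC they had 117.1, 114.0 and 102.5 in KO and 107.2, 98.4 and 115.2 in WT. Depth there was thus 0.456 and 0.482 of the untreated level, in KO and WT. The smallest log2 difference in WT was -1.41, at 15523 to 15572 (limma, adjusted p = 0.000329). In KO it was -1.98, in the 27 bases from 16273, a window of under 2.3 reads per base per 1000000.

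The peak behaved differently from the first 150 bases. The windows 15623 to 15672 and 15673 to 15722 were higher after CMC in KO, by 0.68 and 0.49 on the log2 scale (limma, adjusted p = 2.54e-05 and 0.000198), and in WT they differed by -0.14 and -0.08. The CMC effect was larger in KO than in WT in 3 windows and smaller in 0, where 53.2% of all windows passed. These 3 windows were 15573 to 15722, with differences of 0.75, 0.82 and 0.58. The call of the last was lost with a replicate block (limma, adjusted p = 0.0506) and without any 1 of 6 libraries. At 15623 to 15672 untreated KO libraries had 455.4, 492.3 and 476.7 and CMC-treated KO libraries had 787.2, 804.0 and 691.8. Untreated WT libraries had 550.5, 575.9 and 552.8 there, and CMC-treated WT libraries had 457.6, 416.2 and 686.3, so that WT replicate 3 moved up and the others moved down. Without that replicate, 27.8% of the 18 windows had different CMC effects, against 16.7% with it.

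**Figure D3:**
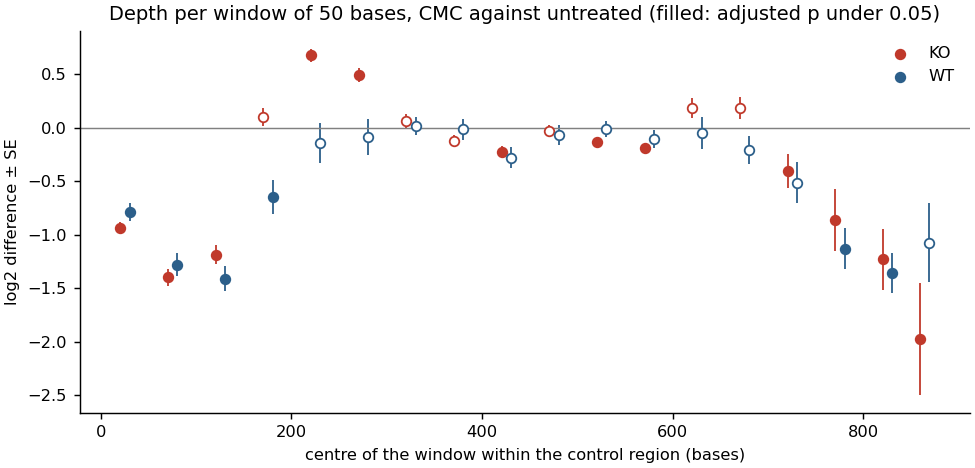
Log2 difference of scaled depth, CMC to untreated (y axis, with the standard error as bars), for the 18 windows by their centre in the region (x axis, the series drawn 5 bases to either side), with filled points where the adjusted p was under 0.05. Filled points of both genotypes lie below 0 near either end of the region, and KO has filled points above 0 at 0.68 and 0.49.

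The direction in which reads mapped also differed between KO and WT. In the per-base tables the strand is that on which a read mapped, for both mates of a pair, and does not name the strand of the transcript. Over the region 46.3% to 48.7% of reads mapped forward in every library. Within it the share averaged 18.9% ± 1.02 in untreated KO and 20.7% ± 0.973 in untreated WT at 15473 to 15522, and 85.5% ± 0.983 and 89.3% ± 1.26 at 15573 to 15622 (SD, n = 3).

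Untreated, the forward share was higher in KO in 3 of 17 windows of sufficient depth and lower in 8, where 56.0% of all windows passed. After CMC it was higher in 2 of 15 and lower in 1, where 12.1% passed. The largest untreated change was at 15973 to 16022, with forward shares of 39.5%, 40.3% and 40.6% in KO and 50.4%, 53.1% and 55.5% in WT. The log2 difference of the odds was -0.75 (SE 0.074, limma, adjusted p = 0.000531), and after CMC it was -0.31 and did not pass (limma, adjusted p = 0.0939).

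The second largest change was at 16123 to 16172, where KO had 57.0% ± 3.55 and WT 68.5% ± 4.35 (SD, n = 3; limma, adjusted p = 0.0157). The third was in the other direction, at 15723 to 15772. Forward shares were 45.6%, 46.1% and 45.7% in untreated KO and 35.3%, 35.6% and 33.1% in untreated WT. In CMC-treated libraries the shares were 46.3%, 46.4% and 45.1% for KO and 40.5%, 38.7% and 38.1% in WT. KO was above WT in all libraries in both cases, with log2 differences of the odds of 0.67 (limma, adjusted p = 0.000127) and 0.41 (limma, adjusted p = 0.00476).

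Reads of the region were nearly all in proper pairs, 99.60% to 99.98% per library. Of the windows, 0 passed the limma test for this share both untreated, where 5 of 17 had an unadjusted p under 0.05 and 0.615% of all windows passed, and after CMC, where 0 of 15 had one and 0% passed. Without replicate 3 of the CMC-treated WT, 12 windows passed. The share of all windows passing without that library is not given here, so this count is not set against it. That replicate had 99.98% proper pairs over the region, and replicates 1 and 2 of its group had 99.60% and 99.63%.

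Single bases at which depth stepped up or down were compared next. A rise in forward reads marks the leftmost base of reads mapped forward, and a fall in reverse reads marks the rightmost base of reads mapped in reverse. A forward step is the net change of scaled depth from the base before. A reverse step is counted as a loss, the depth at a base minus that at the next. Steps of forward reads differed between KO and WT at 20 of 672 bases untreated, with a higher step value in KO at 8 and a lower one at 12, where 4.51% of all bases passed. After CMC they differed at 4 of 632, where 0.455% passed. Steps of reverse reads differed at 22 of 745 bases untreated, with a higher loss value in KO at 14 and a lower one at 8, where 9.10% passed, and at 2 of 627 after CMC, where 0.452% passed. Some called steps were very small. The untreated reverse step with the smallest p, at 15825, was -0.636 ± 0.015 in KO and 0 ± 0 in WT (limma, adjusted p = 0.000151).

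The largest rise of forward reads in KO, untreated and after CMC, was at 15840, base 418 of the region and the first capital of the sequence of 300 bases. In untreated libraries the net gain was 61.0, 62.8 and 58.3 in KO and 29.3, 26.7 and 24.8 in WT. After CMC it was 54.1, 49.5 and 46.9 in KO and 14.0, 13.2 and 23.8 in WT. The gain was thus larger in each KO library than in any WT library. In WT the mean rise was highest elsewhere: untreated it was 31.7 ± 1.57 at 15573 and 27.0 ± 2.26 at 15840, and after CMC it was 25.7 ± 12.3 at 15617 and 17.0 ± 5.93 at 15840 (SD, n = 3), and the order of these positions within WT was not tested. The difference of the log2 steps was 0.19 untreated (SE 0.011, limma, adjusted p = 0.0018), and 0.21 after CMC, which did not pass (limma, adjusted p = 0.367).

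The forward depth dropped again at 15915, 75 bases further on. Untreated, the net change was -63.7, -61.8 and -59.3 in KO and -30.7, -25.6 and -24.8 in WT, close in size to the gain at 15840 in each library. The difference of the log2 steps was -0.23 (SE 0.018, limma, adjusted p = 0.0049). Over the whole genome, forward steps were most negatively correlated with the steps 75 bases later (r = -0.47 across bases, which share reads and are not independent), so that a gain and a loss at this distance outline reads with a common start. The same lag was found in the region alone (r = -0.43). Of the other bases with the smallest p, 16005, 16006 and 15560 had larger forward losses in untreated KO, of 12.3, 4.77 and 2.87 against 3.83, 1.158 and 0.924 in WT.

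**Figure D4:**
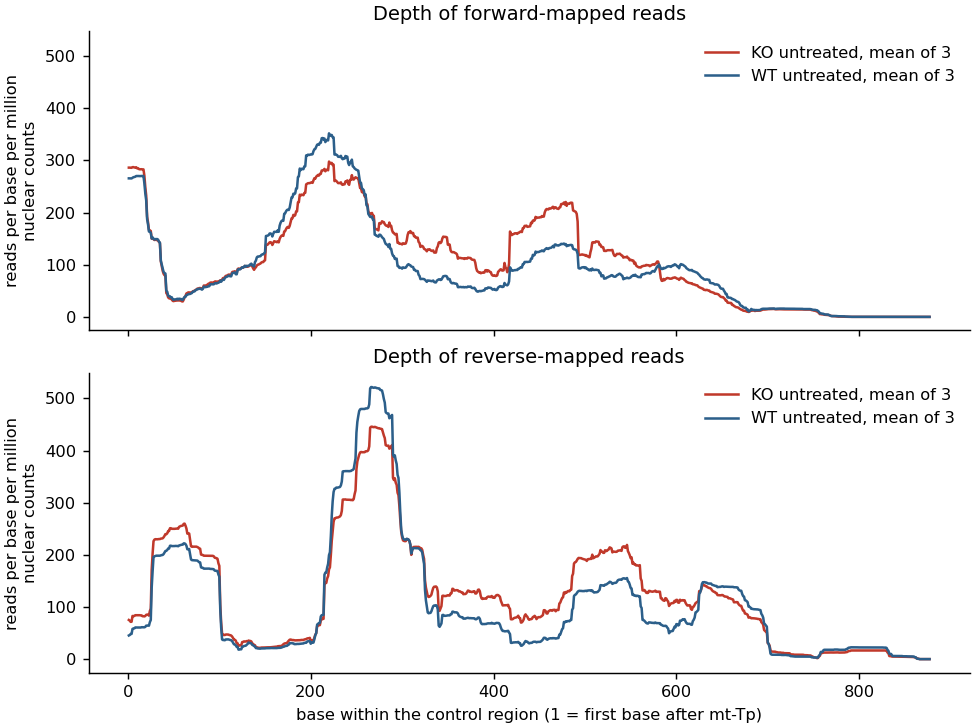
Scaled depth of reads mapped forward (above) and reverse (below) at each base of the control region (x axis), as means of the 3 untreated KO and 3 untreated WT libraries. Forward depth in KO rises at base 418 and drops at base 493, by 60.7 and 61.6 in KO against 27.0 and 27.1 in WT.

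The other large forward gains were part of the rise to the peak. They were 29.8 ± 4.03 in untreated KO and 31.7 ± 1.58 in untreated WT at 15573, and between 13.5 and 21.5 at 15608, 15617 and 15642, and the differences between KO and WT did not pass the test (limma, adjusted p of 0.226 to 0.899). The largest losses of reverse reads came at 15522 (74.4 ± 5.02 in KO and 62.1 ± 10.3 in WT) and 15711 (63.1 ± 3.36 in KO and 76.1 ± 3.35 in WT). Of the losses at these bases and at 15719, 15720 and 15746, the one at 15746 differed, with 41.1 ± 0.550 in KO and 49.7 ± 4.93 in WT (limma, adjusted p = 0.0432). Of the bases with the smallest p after CMC, 15914, just before the drop at 15915, had the largest steps, with net changes of -18.0 ± 1.57 in KO and -4.53 ± 1.48 in WT, and missed the threshold (limma, adjusted p = 0.0535). The other 9 such bases, 4 for forward and 5 for reverse reads, changed by at most 6.29 in size in the CMC-treated groups.

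The feature mt-7s had few counts, and they were higher in KO. The deposited counts were 18, 16 and 16 in untreated KO and 2, 7 and 7 in untreated WT, and 15, 10 and 10 in CMC-treated KO against 3, 6 and 6 in CMC-treated WT. No WT library reached a KO library. Untreated, the log2 difference was 1.48 (SE 0.39, edgeR quasi-likelihood test, adjusted p = 0.000454), where 57.9% of all genes passed. After CMC the counts were below the filter on low counts. With no filter the log2 difference was 1.26 (edgeR, adjusted p = 0.0165), and with DESeq2 it was 1.28 (adjusted p = 0.13).

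Read depth over the same 154 bases did not show this difference. Untreated it was 88.3, 90.1 and 86.3 in KO and 94.0, 106.3 and 103.4 in WT, lower in each KO library than in any WT library. After CMC it was 94.0, 114.1 and 87.0 in KO and 88.9, 76.4 and 108.1 in WT, and the groups overlapped. The log2 difference of depth was -0.20 untreated and 0.12 after CMC (exact permutation test, two-sided, p = 0.1 and 0.6). The depth tables take in every read over these bases, whereas the gene counts take in those assigned to the feature. How reads were assigned, and whether by strand, is not stated in the labels or file headers.

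**Figure D5:**
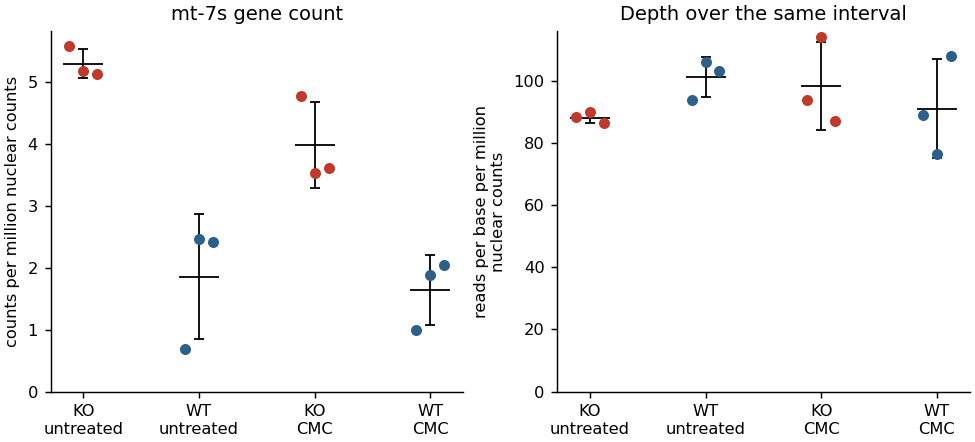
Counts of mt-7s per 1000000 nuclear counts (left) and scaled depth over the same 154 bases (right), with a point for each library and the mean with its SD in black, by group. Counts are higher in all KO libraries, and untreated depth is lower in KO.

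Mismatches to the reference were rare in the region. No position with a mismatch share of at least 1% passed the test for a difference between groups. With a minimum share of 0.1% some positions were called, as given further below. They made up 0.130% ± 0.0069 of aligned bases in untreated KO, 0.138% ± 0.012 in untreated WT, 0.158% ± 0.0035 in CMC-treated KO and 0.169% ± 0.032 in CMC-treated WT (SD, n = 3). Deletions were at 0.250 ± 0.14 and 0.207 ± 0.044 per 10000 aligned bases in untreated KO and WT, and at 0.640 ± 0.029 and 0.820 ± 0.40 after CMC, from 6 to 48 events per library.

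Apart from 15561, the positions tested, with a mismatch share of at least 1%, lay between 16091 and 16110, from inside the first CAAACCCC match of the mt-7s sequence to the bases before the second. The highest was A16099C (reference base, chrM position, commonest other base), with 4.23% in untreated KO, 3.51% in untreated WT, 4.29% in CMC-treated KO and 3.91% in CMC-treated WT. It was followed by T16105G, with 3.15% and 3.28% in untreated KO and WT, and by A16092C, with 1.72% and 1.94%. These shares count mismatches to any other base, not only to the one named. At 16092, C made up 50.5% of the mismatches. No position reached 5%. Between KO and WT, 0 of 5 positions passed untreated (10.5% of all such positions did) and 0 of 6 after CMC (0%), with limma. Between CMC and untreated libraries, 0 of 6 passed in WT (0%) and 0 of 5 in KO (0%). At an unadjusted p under 0.05 there was 1 in KO against WT after CMC and 0 in the other comparisons.

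Nuclear genes of mitochondrial RNA and DNA were compared last, from lists of 11 transcription, 12 replication and 12 RNA turnover genes. Not all of them act at the control region, and several have roles in other mitochondrial RNAs, as given below. Over all genes 57.9% passed untreated and 54.3% after CMC. Of 9 transcription genes tested, 1 was higher and 2 lower in KO, both untreated and after CMC. Mterf2, a member of the mitochondrial termination factor family, fell by 0.97 on the log2 scale (SE 0.15, edgeR, adjusted p = 1.44e-09), from counts of 86, 93 and 88 in untreated WT to 48, 50 and 52 in untreated KO. After CMC it fell by 0.79 (edgeR, adjusted p = 7.87e-05). Tfb1m, a methyltransferase of 12S rRNA, fell by 0.71 untreated. It was not called after CMC, where counts of 35, 26 and 28 in KO overlapped 31, 34 and 37 in WT. Mrpl12, a ribosomal protein that also binds the mitochondrial RNA polymerase, rose by 0.46 untreated.

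Polrmt, that polymerase, was at -0.06 untreated and did not pass (edgeR, adjusted p = 0.699), and after CMC it fell by 0.36 (edgeR, adjusted p = 0.014). Tfam, which packages the genome and activates its promoters, was at 0.10 and -0.00212 and did not pass (edgeR, adjusted p = 0.438 and 0.989). Tfb2m, the factor that opens the promoters, was at -0.03 after CMC (edgeR, adjusted p = 0.872).

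Of 10 replication genes tested, 1 was higher and 0 lower untreated, and 2 were higher and 0 lower after CMC. Lig3, the mitochondrial DNA ligase, rose by 0.47 untreated and 0.45 after CMC (edgeR, adjusted p = 4.28e-06 and 0.00013), and Top1mt, a topoisomerase, rose by 0.70 after CMC (edgeR, adjusted p = 0.0309). Polg, the catalytic subunit of the replicative polymerase, was at 0.06 and 0.00477 and did not pass (edgeR, adjusted p = 0.566 and 0.97). Ssbp1, the single-stranded DNA binding protein, was at -0.16 and 0.21 and did not pass either.

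Of 12 turnover genes, 4 were higher and 1 lower untreated, and 4 were higher and 2 lower after CMC. Pde12, which trims poly(A) tails, rose by 0.86 untreated and 0.99 after CMC. Rexo2, which degrades short RNAs, rose by 0.79 and 1.20, and Elac2, which cuts the 3′ ends of tRNAs, rose by 0.86 and 0.75. Trmt10c, a subunit of mitochondrial RNase P, rose by 0.52 untreated, and Fastk, known for its role in mt-Nd6 RNA, fell by 0.46 after CMC (edgeR, adjusted p of 9.76e-05 and 3.06e-06). The median log2 difference was 0.08 and 0.21 for the turnover list, 0.05 and -0.03 for the transcription list and 0.10 and 0.03 for the replication list, untreated and after CMC. Over all genes it was -0.00313 and -0.0113.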

How the data were processed

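Total RNA of 12 mouse heart libraries was analysed from the tables the authors deposited: read counts per gene, and, made with pysamstats per the file headers, read counts at each base of the mitochondrial genome. The submitters' processing notes name DESeq2 1.16.1, featureCounts 1.5.1, HISAT2 2.0.5 and SAMtools 1.5 beside the mm10 build, with no role stated. Depth per base was scaled to 1000000 nuclear counts, which were multiplied by the TMM factor of the nuclear genes. Depth was tested as log2 with limma 3.58.1, after adding 0.01 reads to each window, a small departure from the plan so that windows near 0 had a logarithm. Forward and proper-pair shares were tested as log2 odds with 0.5 added, in windows of at least 20 reads. Steps used depths of at least 50 with 10 added, and mismatches depths of at least 100 and shares of at least 1%. For gene counts the test was edgeR 4.0.16 (quasi-likelihood), and DESeq2 1.42.0 was an alternative. All adjusted p are Benjamini-Hochberg values over all features tested, called at 0.05. There were 5 comparisons, each fitted on its own groups. Only the limma test of windows and the edgeR test of genes were tried on simulated data. The simulated windows were independent of each other, unlike neighbouring windows here, which share reads. The ratio, share, step and mismatch tests were not simulated. Plain nuclear sums would raise KO against WT by 0.11 untreated and 0.05 after CMC on the log2 scale.

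The windows, bases and genes named were the extremes by size, p or depth, and gene lists, motifs and members were chosen with earlier results of these data known. The stretches of several windows were set after their values were seen. Gene positions came from GENCODE M21. Counting error alone limits single libraries at the depths given.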

Additional observations from a re-analysis of the deposited data

Results flagged for a closer look

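The effect of CMC on depth differed between KO and WT in 3 adjacent windows at the peak of the region, by a test of the difference itself in a fit of all 12 libraries (limma). They were 3 of the region's 18 windows, whereas 53.2% of all windows of the genome passed, so such a difference was not particular to the peak. The CMC effect in KO minus that in WT was 0.75 on the log2 scale at 15573 to 15622 (adjusted p = 0.0146), 0.82 at 15623 to 15672 (adjusted p = 0.0146) and 0.58 at 15673 to 15722 (adjusted p = 0.0251). The first and second of these passed with edgeR, with both other scalings, with a replicate block and without each of the 12 libraries in turn. The third did not pass with a replicate block (adjusted p = 0.0506), as a share of mitochondrial depth (0.30, adjusted p = 0.118), or without replicate 1 or 2 of the CMC-treated KO, replicate 1 of the untreated KO, replicate 1 or 2 of the CMC-treated WT or replicate 2 of the untreated WT (adjusted p of 0.0522 to 0.0616). Replicate 3 of the CMC-treated WT lay nearer to KO than the other 2 in these windows.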

How the results depend on the processing

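The 6 windows from 15723 to 16022 were higher in KO than in WT in the untreated libraries under every alternative run, and after CMC under all except depth as a share of mitochondrial depth, where 3 of them did not pass (0.18, 0.14 and 0.04). Mean depth of the region did not pass untreated in the fit of all 12 libraries (0.16), nor after CMC as a share of mitochondrial depth (0.15). The CMC effect in WT passed in that fit of all 12 libraries (-0.27) and with edgeR (-0.26), and lay between -0.39 and -0.19 with 1 library left out. In KO it was -0.12 by the sum of all gene counts, -0.15 as a share of mitochondrial depth, 0.20 without the bases at either end of the region, which then passed, and -0.015 to 0.079 with 1 library left out. The difference of CMC effects was 0.21 to 0.41 with 1 library left out.

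The share of windows called was 38.9% untreated in the fit of all 12 libraries and 27.8% after CMC as a share of mitochondrial depth. With 1 library left out it was 27.8% to 61.1% for CMC in WT and 11.1% to 27.8% for the difference of CMC effects, which was 50% as a share of mitochondrial depth. Untreated steps numbered 7 to 17 forward and 9 to 24 reverse with 1 library left out, and 8 reverse in the fit of all 12. After CMC they numbered 0 to 41 and 0 to 42, the highest without WT replicate 3, and 30 and 22 in the fit of all 12. Windows called for proper pairs numbered 0 to 2 untreated and 0 to 12 after CMC with 1 library left out, 4 untreated with 5 added and 4 after CMC in the fit of all 12. Forward share was called in 6 windows after CMC in that fit. With a minimum mismatch share of 0.1%, 3 positions were called untreated and 1 after CMC between KO and WT, and 6 in WT and 13 in KO for CMC. The share called over the whole genome at that minimum is not given here, so these counts are not set against it. DESeq2 called 7 listed genes after CMC, against 11.

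Some values that had not passed changed sign. At 15523 to 15572, KO against WT untreated was -0.026 to 0.14 with 1 library left out and -0.00389 as a share of mitochondrial depth, and after CMC it was -0.052 by that share. At 15673 to 15722, which had passed, it was 0.00068 by plain nuclear sums. At 16173 to 16222 after CMC it was -0.45 to 0.16. With 1 library left out, Polrmt was -0.16 to 0.071 and Polg -0.048 to 0.17 untreated, and Tfb2m was -0.19 to 0.14, Polg -0.061 to 0.059 and Tfam -0.075 to 0.11 after CMC. Tfam after CMC was 0.00401 in the fit of all 12, 0.020 with DESeq2, 0.029 with no filter and 0.000927 with TMM over nuclear genes. The cause of these changes was not tested.

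Deviations of libraries of the same replicate number were at most weakly correlated. Between KO and WT, which the labels do not pair, the correlations were -0.11 to -0.01. Between CMC and untreated libraries they were -0.02 to -0.00486 in WT and 0.02 to 0.07 in KO. In KO each CMC library correlated best with the untreated library of its number. With a replicate block, the windows with different CMC effects came to 11.1%, untreated steps to 9 forward and 6 reverse, steps after CMC to 0 in both directions, and windows called for proper pairs to 1 untreated. Depth at the end of the linear reference and counts of under 20 for mt-7s limit what can be said of either.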
